A study of Homo sapiens with 12 samples.

Results

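Dolastatin 15 at 100 nM was set against dolastatin 15 at 20 nM after 16 h in HCT116, a colorectal carcinoma cell line of human origin. The comparison was defined by the labelled dose and time and not by any measured value, and it holds 4 of the 12 libraries of the series, 2 at each dose. The 20 nM libraries carry numbers 1 and 2 in the deposited table and the 100 nM libraries numbers 3 and 4. Solvent libraries of the same time (5 and 6) were not part of the contrast and are given only as levels beside it. At 24 h, libraries 7 and 8 were 20 nM, 9 and 10 were 100 nM, and 11 and 12 were solvent. Every group, solvent included, was seeded in medium with 5% serum and held at 0.25% DMSO. The labels speak of duplicates without saying that these were separate cultures, so the p-values rest on the spread within these pairs and that spread may be technical.

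Dolastatin 15 is a peptide first isolated from a sea hare that binds tubulin and stops microtubules from growing. Dividing cells exposed to such an agent cannot build a spindle and are held in mitosis by the spindle checkpoint, after which they may die or leave mitosis without dividing. A rise in free tubulin dimers is also known to trigger decay of tubulin mRNA. Genes with short-lived transcripts, such as immediate early genes, histone genes and cell cycle genes, are known to change quickly when transcription or the share of mitotic cells changes.

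Levels are FPKM, fragment numbers divided by transcript length and by the library's mapped fragments. The 6 libraries of 16 h had FPKM sums of 948393 to 992039, of which mitochondrially encoded genes held 21.6% to 24.5%, highest in library 4 at 100 nM. On the log2 scale the correlation across genes was 0.9934 within the 20 nM pair, 0.9921 within the 100 nM pair and 0.9909 to 0.992 between the doses. The first principal component of the 4 libraries, with 40.7% of the variance, placed the 20 nM libraries on one side and the 100 nM libraries on the other. The second (33.1%) mainly parted the 100 nM libraries from each other, and the third (26.1%) the 20 nM libraries. Of the epithelial markers, EPCAM stood at 269.13 to 281.62 FPKM and KRT8 at 419.31 to 458.16 in the 6 libraries. CDH1, another epithelial marker, stood at only 2.91 to 3.92. The intestinal factor CDX2 stood at 11.94 to 18.51, and the differentiation markers VIL1, CDX1 and KRT20 stood at no more than 0.82. Of 13 markers of fibroblasts, blood cells and endothelium, COL1A1 alone was tested, at 1.44 to 3.83 FPKM, and CD3E was listed at 0 in all 6.

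Few genes were called between the doses at 16 h. A gene was called when its Benjamini-Hochberg adjusted p from limma, fitted to log2(FPKM + 1) of all 12 libraries, was under 0.05. Of 13458 genes tested, 43 were called (0.320%), 37 of them lower at 100 nM (0.275%) and 6 higher (0.0446%). An unadjusted limma p under 0.05 was found for 1634 genes, 982 lower and 652 higher, so more genes may differ than were called. Of the 43, 40 are protein-coding. The genes that fell had log2 differences from -0.28 to -1.61 with a median of -0.56, and those that rose from 0.26 to 1.15 with a median of 0.32. The median over all tested genes was -0.003. In all 43 genes both libraries of one dose lay beyond both of the other, as they did in 45.4% of all tested genes. For comparison, 20 nM against solvent at 16 h called 2388 genes (17.7%), 912 of them higher (6.78%), and 100 nM against solvent 3205 (23.8%), 1233 of them higher (9.16%). These comparisons share the treated libraries with the contrast of doses.

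Most large differences were not called. A log2 difference of at least 1 in size was measured for 77 tested genes, and 3 of them were called. The share called of all tested genes was 0.320%. The call uses the same difference that selected the 77, so a larger share among them carries no information. In 50 of the 77 the doses did not overlap, beside 45.4% of all tested genes, and in 27 they overlapped. The plot of differences against level shows these genes mostly at low levels. Counts of calls rested on the spread borrowed from the whole series. When limma was fitted to the 4 libraries alone it called 0 genes (1671 had an unadjusted p under 0.05, the smallest adjusted p was 0.155). The 6 libraries of 16 h alone called 10, all lower, of which 7 are among the 43. In all 43 called genes the doses did not overlap, so leaving out 1 library could not turn their direction. All 43 genes kept their direction when each of the 12 libraries was left out in turn, and 34 lost the call without at least 1 of libraries 1 to 4. The other 9 kept it without any single library, namely AC129492.3, HES1, NR1D1, H1F0, JUNB, FBXO5, ID1, TRIB1 and SLC38A2.

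**Figure D1:**
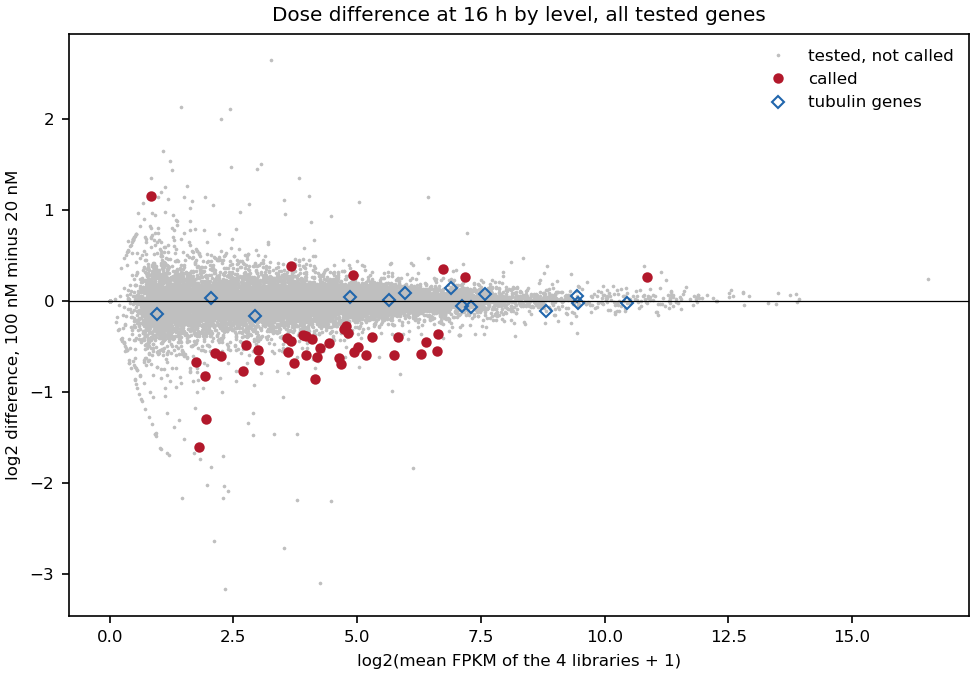
Log2 difference between 100 nM and 20 nM at 16 h (vertical axis) against log2 of the mean FPKM of the 4 libraries plus 1 (horizontal axis), for 13458 tested genes. Red points are the 43 called genes, 37 of them below 0, and blue diamonds are the 14 tested tubulin genes, which lie between -0.17 and 0.15.

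**Figure D2:**
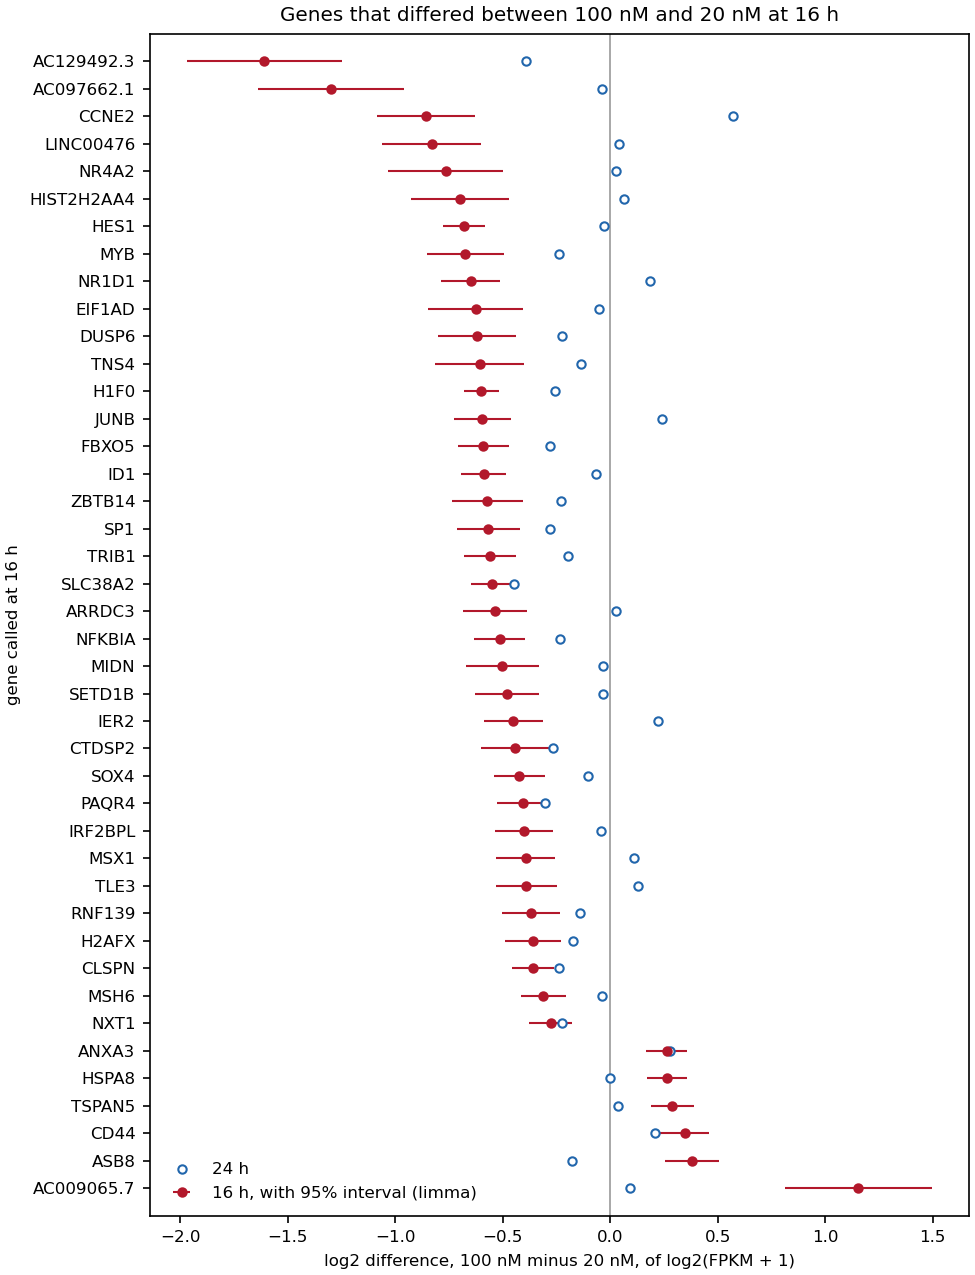
Log2 difference, 100 nM minus 20 nM, of 42 called genes at 16 h (red, with the 95% interval from limma) and at 24 h (open blue). At 24 h, 41 of the 42 points lie closer to 0 than at 16 h. CCNE2 and JUNB, with 16 h values of -0.86 and -0.60, are among several genes that fell at 16 h and lie above 0 at 24 h.

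HES1 and ID1 fell with some of the smallest adjusted p-values of the comparison. HES1, a basic helix-loop-helix repressor best known as a Notch target, stood at 15.23 and 15.43 FPKM at 20 nM and at 9.11 and 9.29 FPKM at 100 nM. The doses did not overlap, and the libraries of each dose differed by less than 0.3 FPKM. HES1 was 1.67-fold lower at 100 nM, a log2 difference of -0.68 (SE 0.043, limma adjusted p = 0.000485). Solvent libraries stood at 17.69 and 17.59 FPKM, so HES1 levels stepped down from solvent to 20 nM to 100 nM. ID1, an inhibitor of helix-loop-helix factors and a target of BMP signalling, measured 93.04 and 92.77 FPKM at 20 nM against 59.28 and 63.78 at 100 nM. ID1 fell by 0.59 on the log2 scale (SE 0.046, limma adjusted p = 0.00178), from 137.15 and 139.83 FPKM in solvent.

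The promoters of HES1, ID1, JUNB and NR1D1 are shown because these genes kept their call in every leave-one-out fit and all hold a CCAAT box, the element bound by NF-Y at many promoters. Each is the stretch of 250 bases before the start in RefSeq (GRCh38.p14), written 5′ to 3′ on the strand of the gene. They lie at chr3:194135898-194136147 (plus strand), chr20:31605039-31605288 (plus), chr19:12791236-12791485 (plus) and chr17:40100590-40100839 (minus). Capitals mark CCAAT or its reverse complement ATTGG and, in ID1, TTTGAA, the cell cycle homology region.
HES1: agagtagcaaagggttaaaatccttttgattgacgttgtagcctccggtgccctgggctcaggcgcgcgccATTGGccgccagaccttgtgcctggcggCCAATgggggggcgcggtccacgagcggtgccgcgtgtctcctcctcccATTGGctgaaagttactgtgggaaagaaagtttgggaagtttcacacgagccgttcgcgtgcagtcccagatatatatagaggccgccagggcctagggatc
ID1: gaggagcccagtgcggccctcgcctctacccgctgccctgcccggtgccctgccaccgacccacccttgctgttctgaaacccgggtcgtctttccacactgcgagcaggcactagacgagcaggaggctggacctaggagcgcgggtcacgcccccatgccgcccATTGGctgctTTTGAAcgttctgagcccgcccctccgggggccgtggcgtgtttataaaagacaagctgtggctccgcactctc
JUNB: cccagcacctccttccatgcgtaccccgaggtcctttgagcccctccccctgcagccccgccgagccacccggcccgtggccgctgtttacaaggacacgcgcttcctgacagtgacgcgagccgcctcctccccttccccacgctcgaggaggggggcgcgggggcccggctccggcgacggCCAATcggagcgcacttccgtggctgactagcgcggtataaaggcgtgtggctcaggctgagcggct
NR1D1: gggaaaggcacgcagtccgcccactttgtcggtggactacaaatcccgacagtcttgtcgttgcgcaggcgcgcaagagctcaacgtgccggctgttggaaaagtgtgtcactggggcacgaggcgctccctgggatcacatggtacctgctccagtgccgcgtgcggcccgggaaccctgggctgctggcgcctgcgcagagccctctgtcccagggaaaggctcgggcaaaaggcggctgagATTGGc
HES1 holds 3 such boxes, which begin 179, 151 and 102 bases before the start. The single box of JUNB begins 67 bases before the start, that of ID1 84 bases and that of NR1D1 6 bases before it. These distances are from the RefSeq start. In the GENCODE annotation used for symbols, NR1D1 begins at 40100725 on the minus strand, which is inside the window shown. By that annotation the box of NR1D1 lies within the gene, so its place in a promoter is uncertain. FBXO5 and SLC38A2, which kept their calls in every such fit too, hold no CCAAT in the same window. Among the genes that fell, 27 of 37 matched the RefSeq promoter table, and 16 of the 27 (59.3%) held CCAAT on either strand, beside 35.4% of the 9939 promoters of tested genes. The other motifs searched on both strands were TTTGAA (7.41% of the 27 against 7.96%), the TEAD motif GGAATG (7.41% against 9.09%), the E2F motif TTTCCCGC (0 against 2.32%), the AP-1 motif TGANTCA (0 against 3.63%) and the cAMP response element TGACGTCA (3.7% against 3.08%). These shares are descriptions of 27 promoters and were not tested.

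SOX4, MYB, MSX1 and TLE3, which also regulate transcription, fell as well. SOX4, a high-mobility-group factor, measured 17.82 and 19.41 FPKM at 20 nM and 13.94 and 13.3 at 100 nM (log2 difference -0.42, limma adjusted p = 0.0157). MYB, a proto-oncogene of progenitor cells, measured 3.04 and 3.24 FPKM at 20 nM and 1.77 and 1.43 at 100 nM (-0.67, limma adjusted p = 0.014). The homeobox gene MSX1 and the Groucho-family co-repressor TLE3 each fell by 0.39 on the log2 scale. In each of these genes both 100 nM libraries stood below both 20 nM libraries. The calls were less firm than those of HES1 and ID1. SOX4 lost its call without library 2, 3 or 4 (limma adjusted p = 0.0547 to 0.133) and MYB without library 1, 2 or 4 (0.0801 to 0.127). MSX1 lost it without any single library other than 7 or 8 (0.0829 to 0.244), and TLE3 lost it without any 1 of the 12 (0.0503 to 0.266).

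**Figure D3:**
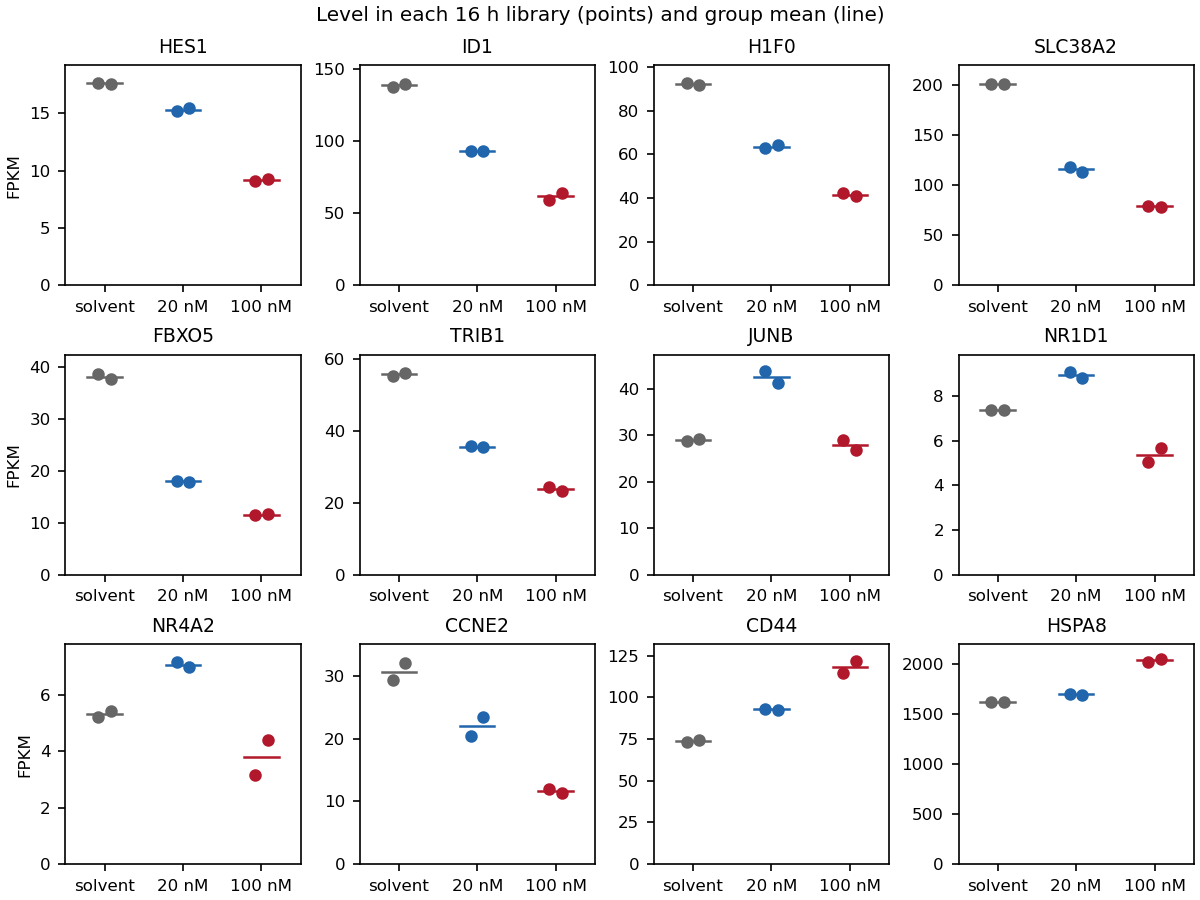
FPKM of 12 called genes in each library of 16 h (points) with the mean of each group (line), for solvent (grey), 20 nM (blue) and 100 nM (red), each axis starting at 0. In the first 6 panels and in CCNE2 the level steps down from solvent to 20 nM to 100 nM, and in JUNB, NR1D1 and NR4A2 the 20 nM libraries stand above solvent and above 100 nM.

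Of the immediate early genes, which respond within minutes to growth factors and stress, JUNB, IER2 and NR4A2 fell. JUNB, an AP-1 subunit, measured 43.82 and 41.34 FPKM at 20 nM and 28.98 and 26.76 FPKM at 100 nM. It fell by 0.60 on the log2 scale (SE 0.058, limma adjusted p = 0.00484). In solvent JUNB stood at 28.78 and 29.31 FPKM, so the level at 20 nM was above solvent and the level at 100 nM overlapped it. IER2 measured 94.71 and 97.41 FPKM at 20 nM, 71.75 and 68.22 at 100 nM, and 87.02 and 85.95 in solvent (log2 difference between doses -0.45, limma adjusted p = 0.0223). NR4A2, an orphan nuclear receptor, measured 7.16 and 6.99 FPKM at 20 nM, 3.17 and 4.41 at 100 nM, and 5.21 and 5.42 in solvent (-0.77, limma adjusted p = 0.0452). In both genes, too, 20 nM stood above solvent and 100 nM below it, although the 20 nM levels of IER2 and NR4A2 did not pass the test against solvent (limma adjusted p = 0.126 and 0.0723).

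Of the 26 AP-1 and immediate early genes tested, these 3 fell and 23 did not pass the test. The median log2 difference of the 26 was -0.25, beside -0.003 over all genes. In 22 of them (84.6%) both 100 nM libraries stood below both 20 nM libraries, as they did in 23.6% of all tested genes. JUND, at 77.99 and 68.9 FPKM against 51.41 and 57.51, had a log2 difference of -0.42 with limma adjusted p = 0.0768, and KLF6, a zinc finger factor, one of -0.31 with 0.0509. JUN went the other way, from 17.76 and 19.05 FPKM to 22.86 and 23.32 (0.31, limma adjusted p = 0.0732). FOS and FOSL1 overlapped between doses. The call of IER2 was lost without any of libraries 1 to 4, 5, 6, 9 or 10 (0.0503 to 0.173) and that of NR4A2 without library 1, 2, 3, 5, 6, 9, 10, 11 or 12 (0.0827 to 0.206).

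DUSP6 and NFKBIA, inhibitors in the ERK and NF-kB pathways, fell. DUSP6, the phosphatase that dephosphorylates ERK, measured 20.78 and 21.21 FPKM at 20 nM and 13.16 and 13.44 at 100 nM. It fell by 0.62 on the log2 scale (SE 0.080, limma adjusted p = 0.018). NFKBIA, which encodes the NF-kB inhibitor IkB-alpha, measured 21.87 and 20.94 FPKM at 20 nM and 15.04 and 14.32 at 100 nM, and fell by 0.52 (SE 0.052, limma adjusted p = 0.00558). Both genes had stood higher in solvent, DUSP6 at 29.07 and 31.6 FPKM and NFKBIA at 29.27 and 28.37. Of 22 ERK output genes tested DUSP6 alone was called, the list median was -0.14, and in 15 (68.2%) the 100 nM libraries lay below the 20 nM libraries, against 23.6% of all genes. SPRY4, an inhibitor of receptor tyrosine kinase signalling, missed the threshold (-0.39, limma adjusted p = 0.0509). The list shares IER3, MYC, EGR1 and FOSL1 with the immediate early genes. NFKBIA was the only called gene of 12 NF-kB and chemokine genes, whose median was -0.10. DUSP6 lost its call without any of libraries 1 to 4 (0.0928 to 0.145) and NFKBIA without library 1 or 4 (0.0564 to 0.0669). TRIB1, a pseudokinase that scaffolds protein degradation, was chosen after its values were seen. It measured 35.75 and 35.54 FPKM at 20 nM, 24.4 and 23.32 at 100 nM, and 55.31 and 56.08 in solvent (-0.56, limma adjusted p = 0.00484).

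The clock repressor NR1D1 (REV-ERB alpha), a nuclear receptor that binds haem, measured 9.08 and 8.82 FPKM at 20 nM and 5.05 and 5.66 at 100 nM. It fell by 0.65 on the log2 scale (SE 0.061, limma adjusted p = 0.00481). Solvent stood between the doses at 7.35 and 7.38 FPKM. THRA overlaps NR1D1 on the opposite strand, and its difference was -0.22 (limma adjusted p = 0.32). The called gene with the largest fall was AC129492.3, a model on chromosome 17 from 8150816 to 8162975 on the minus strand (GRCh38, GENCODE 29), at 5.14 and 3.48 FPKM at 20 nM and 0.74 and 0.7 at 100 nM. Its log2 difference was -1.61 (SE 0.159, limma adjusted p = 0.00491), and solvent stood at 5.66 and 6.98 FPKM. It spans PER1, a clock gene, and VAMP2 on the same strand, so the division of reads among these is uncertain. PER1 itself went from 16.34 and 18.62 FPKM to 13.03 and 11.75, a difference of -0.46 that did not pass (limma adjusted p = 0.157). Further clock genes, looked up after these values were seen, did not pass either. NR1D2 had -0.29, DBP -0.24 and BHLHE40 -0.24, all with both 100 nM libraries below both 20 nM libraries, and PER2 had -0.04. That order held in 23.6% of all tested genes. No list of clock genes was set, so these genes do not stand for clock genes as a set.

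Cell cycle regulators were among the genes that fell. FBXO5 encodes EMI1, the inhibitor of the anaphase-promoting complex that accumulates from the start of S phase. It measured 17.97 and 17.87 FPKM at 20 nM and 11.5 and 11.63 at 100 nM, with 38.53 and 37.64 in solvent. FBXO5 fell by 0.59 on the log2 scale (SE 0.053, limma adjusted p = 0.00383). CCNE2, cyclin E2 of the G1 to S transition, measured 20.46 and 23.53 FPKM at 20 nM, 11.98 and 11.37 at 100 nM, and 29.39 and 32.05 in solvent. It fell by 0.86 (limma adjusted p = 0.0137), 1.88-fold. CLSPN, claspin of the replication checkpoint, measured 30.15 and 30.91 FPKM at 20 nM and 23.45 and 23.77 at 100 nM, and fell by 0.36 (limma adjusted p = 0.0153). In all 3 genes the doses did not overlap. CCNE2 lost its call without library 2, 3 or 4 (0.0554 to 0.111) and CLSPN without any of libraries 1 to 4 (0.085 to 0.141).

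Of 60 DNA replication and G1/S genes tested, CCNE2 alone passed. The median was -0.05, and in 28 (46.7%) both 100 nM libraries stood below both 20 nM libraries, and in 3 (5%) above, against 23.6% and 21.7% of all genes. CDC6, which loads the replicative helicase, measured 84.7 and 90.7 FPKM at 20 nM and 69.36 and 66.11 at 100 nM (-0.37, limma adjusted p = 0.0651). MCM2, a subunit of that helicase, measured 101.92 and 101.1 FPKM against 86.71 and 83.33 (-0.25, limma adjusted p = 0.0768). Of 72 G2 and mitosis genes, FBXO5 fell and no other member passed. Their median was 0.08, and in 36 (50%) both 100 nM libraries stood above both 20 nM libraries, as they did in 21.7% of all genes, while in 8 (11.1%) they stood below. AURKA, a spindle pole kinase, measured 172.8 and 172.74 FPKM at 20 nM and 199.84 and 199.44 at 100 nM (0.21, limma adjusted p = 0.0855). PLK1, a mitotic kinase, had a difference of 0.19 (limma adjusted p = 0.0760) and CCNB1, cyclin B1, one of 0.18 (0.126). In bulk RNA, more or fewer cells in a phase and more or less RNA per cell cannot be told apart. When libraries were rescaled to a common FPKM sum, which moved the median of all genes to -0.037, the mitosis median became 0.04 and the replication median -0.09.

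Among histone genes, H1F0 and HIST2H2AA4 fell. H1F0, a linker histone whose mRNA is polyadenylated, measured 62.82 and 64.1 FPKM at 20 nM, 42.31 and 40.79 at 100 nM, and 92.54 and 91.84 in solvent. H1F0 fell by 0.60 (SE 0.036, limma adjusted p = 0.000485). HIST2H2AA4, a core histone H2A gene with a near-identical copy and so of uncertain read division, measured 33.66 and 27.92 FPKM at 20 nM and 19.95 and 17.15 at 100 nM, above 7.13 and 7.52 in solvent. It fell between the doses by 0.70 (limma adjusted p = 0.0342). The call of HIST2H2AA4 was lost without library 1, 3, 4, 5, 6, 9 or 10 (0.0547 to 0.181). Of 36 replication-dependent histone genes 19 had enough signal to be tested, HIST2H2AA4 alone was called, and the median was -0.55. In 14 of the 19 (73.7%, against 23.6% of all genes) the 100 nM libraries lay below the 20 nM libraries, and in 0 above. HIST1H2BK, the highest, stood at 69.99 and 76.93 FPKM against 43.81 and 39.56 (-0.80, limma adjusted p = 0.127). HIST1H2AC had -0.79 with 0.0651 and HIST2H2BE -0.56 with 0.0585. Poly(A) selection captures mRNA of this class poorly, so these levels concern the polyadenylated part.

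**Figure D4:**
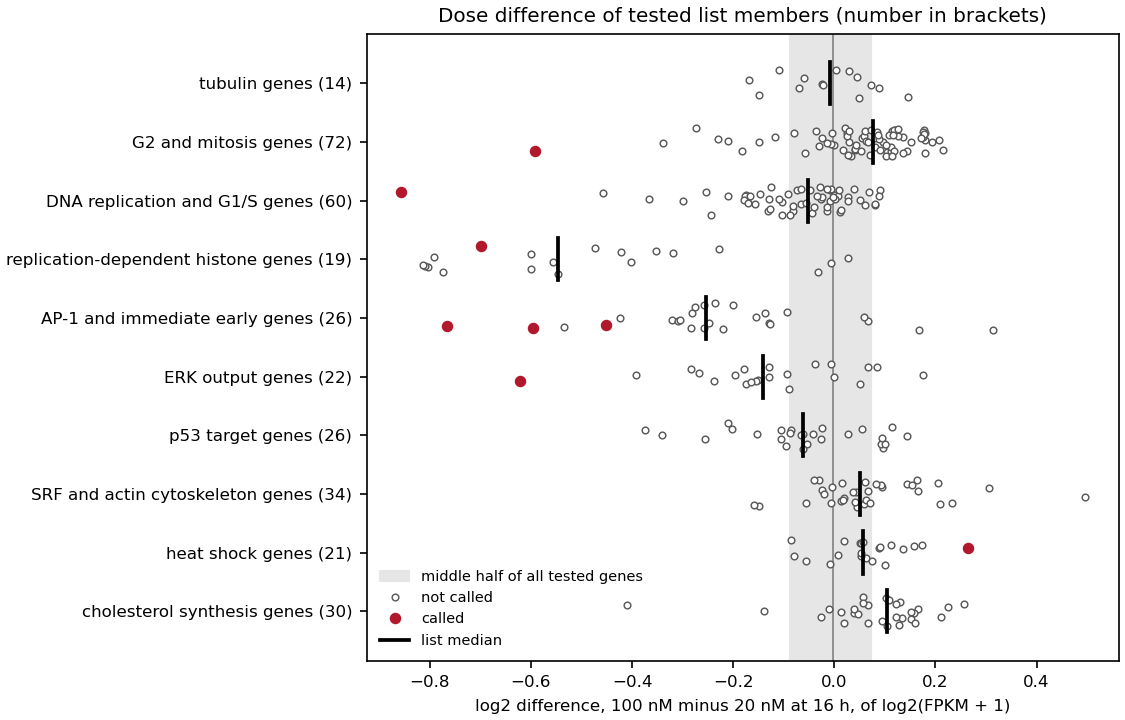
Log2 difference, 100 nM minus 20 nM at 16 h, of each tested member of 10 gene lists (points, called ones in red), with the list median (black bar), and the middle quartiles of all tested genes as a grey band. Medians run from -0.55 for replication-dependent histone genes and -0.25 for AP-1 and immediate early genes to 0.10 for cholesterol synthesis genes.

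SLC38A2, ARRDC3, TNS4 and EIF1AD also fell. SLC38A2 (SNAT2), a neutral amino acid transporter, measured 117.8 and 113.49 FPKM at 20 nM, 79.09 and 78.31 at 100 nM, and 200.96 and 201.01 in solvent. It fell by 0.55 between the doses (SE 0.044, limma adjusted p = 0.00178). The other 24 tested genes of the ATF4 amino acid response did not pass, and the median of the 25 was -0.01. ARRDC3, an arrestin-domain protein that promotes receptor degradation, measured 8.36 and 8.45 FPKM at 20 nM, 5.68 and 5.29 at 100 nM, and 5.16 and 5.82 in solvent. ARRDC3 fell by 0.54 between the doses (limma adjusted p = 0.0157), back to the solvent range. TNS4, a tensin of focal adhesions, fell by 0.61 (limma adjusted p = 0.0391) and EIF1AD by 0.63 (0.0477). The calls of ARRDC3, TNS4 and EIF1AD were lost without any of libraries 1 to 4, with adjusted p up to 0.137, 0.206 and 0.244. TNS4 and EIF1AD also lost theirs without library 5, 6, 9 or 10, and EIF1AD without 11 or 12.

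Noncoding transcripts gave 2 of the larger falls. AC097662.1, on chromosome 2 from 227221052 to 227325201, runs antisense to MFF and COL4A3. It measured 4.63 and 4.3 FPKM at 20 nM, 1.4 and 1.05 at 100 nM, and 0.46 and 0.66 in solvent (log2 difference between doses -1.30, limma adjusted p = 0.0134). MFF stood at 56.75 to 60.12 FPKM in the 4 libraries with a difference of -0.07. LINC00476, a long intergenic RNA on chromosome 9 from 95759231 to 95875977, measured 3.74 and 3.99 FPKM at 20 nM, 2.03 and 1.47 at 100 nM, and 2.48 and 2.46 in solvent (-0.83, limma adjusted p = 0.0157). Both transcripts stood above solvent at 20 nM. Without library 1, 2 or 4 the calls were lost for AC097662.1 (0.0895 to 0.107) and LINC00476 (0.0696 to 0.141). AC009065.7, on the opposite strand of PGP and named after its values were seen, was listed at 0.1 and 0.1 FPKM at 20 nM and at 1.35 and 1.55 at 100 nM, with 1.05 and 1.3 in solvent (1.15, limma adjusted p = 0.0187). Its call was lost without any of libraries 1 to 4 (0.085 to 0.147). Antisense levels are uncertain, because no source used here gives the strand setting of the counting.

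The other 11 genes that fell are outside the rule for named genes, and those given here were chosen after their values were seen. SP1, a factor of GC-rich promoters, measured 13.7 and 13.17 FPKM at 20 nM, 8.21 and 9.31 at 100 nM, and 24.06 and 24.31 in solvent, and fell by 0.57 (limma adjusted p = 0.0134). H2AFX, the histone variant marked at DNA breaks, measured 110.05 and 110.75 FPKM at 20 nM and 85.07 and 86.65 at 100 nM, and fell by 0.36 (limma adjusted p = 0.0478). The 11 ran from -0.57 for ZBTB14 to -0.28 for NXT1, and in each of them both 100 nM libraries stood below both 20 nM libraries. SP1 lost its call without library 1, 2 or 3 (0.0542 to 0.0977), ZBTB14 without any of libraries 1 to 4 (0.0801 to 0.13), and H2AFX and NXT1 without any single library other than 7 or 8 (0.0747 to 0.244 and 0.0891 to 0.269).

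CD44, HSPA8, ANXA3, TSPAN5 and ASB8 rose, by smaller steps. CD44, the hyaluronan receptor, measured 92.9 and 92.54 FPKM at 20 nM and 114.47 and 121.9 at 100 nM, above 73.27 and 74.65 in solvent. It rose by 0.35 on the log2 scale (SE 0.050, limma adjusted p = 0.0342). HSPA8, the constitutive Hsp70 chaperone that also uncoats clathrin vesicles, measured 1704 and 1692 FPKM at 20 nM and 2025 and 2052 at 100 nM, with 1624 and 1625 in solvent. HSPA8 rose by 0.26 (SE 0.040, limma adjusted p = 0.0444). ANXA3, a calcium-dependent phospholipid-binding annexin, measured 131.21 and 129.27 FPKM at 20 nM and 156.82 and 155.94 at 100 nM, and rose by 0.26 (limma adjusted p = 0.0478). TSPAN5, a tetraspanin that escorts the protease ADAM10, rose by 0.29 (limma adjusted p = 0.0444). ASB8, an ankyrin repeat and SOCS box protein, measured 10.25 and 9.91 FPKM at 20 nM and 13.79 and 13.06 at 100 nM, beside 12.09 and 11.58 in solvent, and rose between the doses by 0.38 (limma adjusted p = 0.0389).

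Each of these 5 increases lost its call without any of libraries 1 to 4, 5, 6, 9 or 10, and CD44, HSPA8, TSPAN5 and ASB8 also without library 11 or 12, with limma adjusted p up to 0.25. Rescaled to a common FPKM sum, ANXA3, HSPA8, TSPAN5 and ASB8 were no longer called, and the split of calls became 57 lower and 2 higher (96.6% lower, against 86% as deposited). With no filter on low values it was 41 lower and 13 higher (75.9% lower). Of 18 Wnt target genes CD44 rose, SOX4 fell and 16 did not pass, with a median of -0.05, and CD44 was the only called gene of 33 integrin and matrix genes (median 0.07). HSPA8 was the only called gene of 21 heat shock genes, whose median was 0.06. In 13 of them (61.9%, against 21.7% of all genes) the 100 nM libraries stood above the 20 nM libraries, among them HSP90AB1 (0.11, limma adjusted p = 0.2) and HSPB1 (0.16, 0.238). Rescaled, the count was 11 (52.4%, against 14.3% of all genes) and the median 0.02.

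Of 36 gene lists 25 had no called member, and in the 24 of these with at least 2 tested genes the median log2 difference ran from -0.12 (interferon-stimulated genes) to 0.10. In 21 of 30 cholesterol synthesis genes (70%, against 21.7% of all genes) both 100 nM libraries stood above both 20 nM libraries, with a median of 0.10, and the largest differences were 0.26 for HSD17B7 and 0.23 for DHCR7, enzymes of the pathway. After rescaling to a common sum the count was 13 of 30 (43.3%, against 14.3% of all genes) and the median 0.07. In 18 of 34 SRF and actin cytoskeleton genes (52.9%, against 21.7%) the same order held, with a median of 0.05. The opposite order held in 3 (8.82%, against 23.6%). Rescaled, 14 stood above (41.2%, against 14.3% of all genes) and 8 below (23.5%, against 32.5%), with a median of 0.01. FHL2 measured 46.28 and 45.36 FPKM at 20 nM and 54.97 and 58.76 at 100 nM (0.31, limma adjusted p = 0.0561), and TAGLN, transgelin, had 0.50 with 0.112. The 26 p53 target genes had a median of -0.06 with 13 below (50%, against 23.6% of all genes) and 4 above (15.4%, against 21.7%). Members of a list share regulators and libraries, so these counts describe the 4 libraries and are not independent trials.

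None of the 14 tubulin genes tested passed the limma test between the doses. TUBB, a beta-tubulin, measured 468.59 and 460.9 FPKM at 20 nM and 427.76 and 433.64 at 100 nM, against 971.79 and 943.44 in solvent. Its difference between doses was -0.11 with a 95% interval from -0.20 to -0.02 (limma adjusted p = 0.293). TUBA1B, at 1413 and 1403 FPKM against 1387 and 1383, had -0.02. TUBA1C had -0.02 with a 95% interval from -0.11 to 0.07. The range over the 14 genes ran from -0.17 for TUBG2 to 0.15 for TUBB2A, the median was -0.01, and 7 (50%, against 23.6% of all genes) had 100 nM below 20 nM without overlap, while 4 (28.6%, against 21.7%) had it above.

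At 24 h the same dose contrast called 657 genes (4.88%, 1.82% higher and 3.06% lower at 100 nM). Of the 43 genes called at 16 h, 30 had the same direction at 24 h, 12 were called at both times and 42 had a smaller difference at 24 h. The genes were chosen for their 16 h difference, so a smaller value at the other time is a description. SLC38A2 fell at 24 h too, with 256.73 and 277.9 FPKM at 20 nM and 199.29 and 192.21 at 100 nM (-0.45, limma adjusted p = 0.00244). ANXA3 rose at 24 h by 0.28 (limma adjusted p = 0.0115). FBXO5 fell at 24 h by 0.28 (0.0252) and H1F0 by 0.26 (0.00995). CCNE2 and JUNB were called at both times in opposite directions. CCNE2 stood at 38.33 and 36.35 FPKM at 20 nM and 52.54 and 59.66 at 100 nM, a difference of 0.57 (limma adjusted p = 0.02). JUNB stood at 56.03 and 51.83 against 62.5 and 65.47 FPKM, a difference of 0.24 (0.0494). The difference of the dose contrast between the times was called for 70 genes (0.520%), of which 14 were among the 43.

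**Figure D5:**
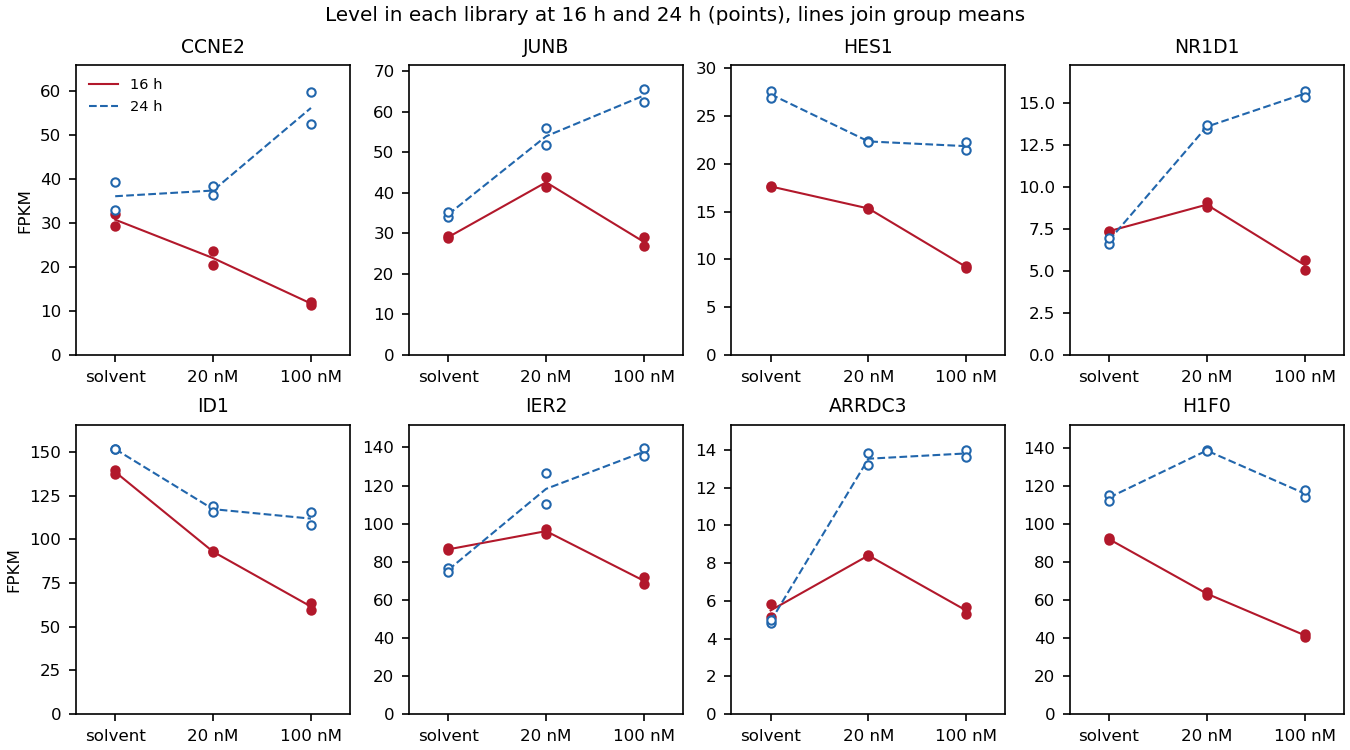
FPKM of 8 called genes in solvent, 20 nM and 100 nM, each library a point and lines joining group means, at 16 h (red, solid) and 24 h (blue, dashed), each axis starting at 0. At 16 h the 100 nM libraries lie below the 20 nM libraries in all 8 panels. At 24 h they lie above them in CCNE2, JUNB, NR1D1 and IER2.

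The structure of the protein-coding genes that fell varied. Of 35 with a transcript model, 11 (31.4%) had at most 2 exons in the transcript with the longest coding sequence, beside 6.43% of 11613 tested coding genes, while CLSPN had 25, TLE3 20 and MYB 16. The median number of exons was 5 against 9, and the median span of that transcript on the genome 7.9 kb against 27.5 kb. The median length of the 3′ untranslated region was 1050 bases against 949, and the AU-rich element TATTTAT was found there in 28.6% against 30.4%. These are descriptions without a test, and JUNB, IER2, H1F0 and HIST2H2AA4, each with 1 exon, are among the 35.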

How the data were processed

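RNA of HCT116 cells was poly(A)-selected, made into libraries with a directional NEBNext kit and sequenced as paired reads, per the labels' protocols. The authors deposited 1 table of FPKM per gene and library, rounded to 2 decimals, for 58174 genes. The submitters' processing notes name RSEM 1.2.28 and GRCh38. Aligner, annotation release and strand setting were not given in the sources used here. The FPKM values keep no read counts and show no steps of whole reads, so depth is unknown and no counting interval could be set. Near-identical copies and overlapping genes divide reads uncertainly.

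Columns name a group and a library number, so the 2 libraries of a group entered without pairing. GENCODE 29 gave symbols for 57836 genes by identifier, and 338 had none. A gene was tested if 2 or more of the 12 libraries reached 1 FPKM, which left 13458 genes, 11660 of them protein-coding. The means of 6 groups were fitted with limma 3.58.1 (R 4.3.3) to log2(FPKM + 1), with a mean-dependent prior (6 residual and 2.98 prior degrees of freedom), two-sided, Benjamini-Hochberg over all tested genes. The fit was tested on simulated data. Log2 differences on this scale understate the change of low genes. Fold changes are ratios of mean FPKM.

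The members and the 36 gene lists were chosen with earlier results of these data known. Named were the 15 largest called increases and 15 largest decreases with a symbol, no overlap between doses and 2 FPKM or more as the mean of the higher dose. Up to 4 called members per list and direction and every called gene with a different contrast at 24 h were named too. All tested tubulin genes entered the range and counts given, but only some of them were named. List members that did not pass were chosen for naming after their values were seen, as were the cAMP response element and the transcript features, which use the GENCODE 29 transcript with the longest coding sequence. Alternatives were pseudocounts of 0.1 and 0.5, no filter, a minimum of 5 FPKM, rescaling to a common sum (TPM) or to one over nuclear genes, median-of-ratios scaling, a constant prior, fewer libraries, protein-coding genes alone, and leaving out each library. Results for a few genes are not reported here.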

Additional observations from a re-analysis of the deposited data

Results flagged for a closer look

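For 14 of the 43 genes called at 16 h, the contrast of 100 nM against 20 nM differed between 24 h and 16 h by limma's test of that difference (adjusted p under 0.05 over 13458 genes), and 13 of them are given here. Positive values mean that the contrast was higher at 24 h. Cyclin E2 (CCNE2) differed most, by 1.429, with 100 nM below 20 nM at 16 h and above it at 24 h. JUNB (0.838) and IER2 (0.673), both immediate early genes, and the clock repressor NR1D1 (0.831) had contrasts below 0 at 16 h and above 0 at 24 h, of which JUNB alone was also called at 24 h. The noncoding transcripts AC097662.1 and LINC00476 differed by 1.264 and 0.87, and their 24 h contrasts were -0.04 and 0.04. HES1 (0.648), ID1 (0.519) and H1F0 (0.344) had 24 h contrasts of -0.03, -0.07 and -0.26, and H1F0 alone of the 3 was called at 24 h. ARRDC3 differed by 0.565, TLE3 by 0.52 and MSX1 by 0.505, with 24 h contrasts from 0.03 to 0.13 in these 3 genes. ASB8, which rose at 16 h, differed by -0.558, and its 24 h contrast was -0.18. All 14 genes were first chosen for their 16 h contrast, which enters the difference.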

How the results depend on the processing

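No paired analysis was possible because the columns carry no sample number of the labels. All 43 called genes kept their direction under each setting in which they were tested. This was fixed beforehand in all settings but the rescalings. A filter, another prior, or a fit to chosen genes or to the 16 h libraries leaves a gene's difference as it is. The doses did not overlap in these genes, so neither a pseudocount nor leaving out a library could turn the direction. Rescaling to a common sum turned 7 list medians that lay between 0.01 and 0.03 to between -0.03 and -0.01. Of 41 cytosolic ribosomal protein genes, 20 (48.8%) stood above and 9 (22%) below without overlap as deposited. The shares of all tested genes were 21.7% and 23.6%. Rescaled, the list had 3 above (7.32%) and 10 below (24.4%), against 14.3% and 32.5% of all tested genes. The count of called genes (43) became 28 with a constant prior, 10 with the 6 libraries of 16 h and 0 with the 4 libraries of the contrast, and ran from 15 to 65 when each library was left out. The 6 higher genes became 13 with no filter, 2 after rescaling to a common sum or with a constant prior, 0 with 6 or 4 libraries, and 0 to 11 without 1 library. The 37 lower genes became 57 after rescaling to a common sum, 10 with 6 libraries, 0 with 4, and 13 to 54 without 1 library. At 24 h, 657 calls became 334 with no filter and 411 with a constant prior, and ran from 42 (without library 9) to 1511 (without library 7). The 70 genes whose contrast differed between times became 376 after rescaling to a common sum and 17 with a constant prior, and ran from 8 (without library 9) to 491 (without library 7). Without any 1 library, the group left with 1 was assumed to vary like the others, and the fit has fewer degrees of freedom. Genes called under other settings are not all among the 43. With a constant prior 26 of the 28 were, and with the 6 libraries of 16 h 7 of the 10. With fewer libraries the spread rests on fewer samples. The cause of the other changes was not tested. Depth is unknown, so the limit for low genes could not be set.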
